A study of Mus musculus with 16 samples.

Results

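The Mos and MAP kinase pathway was followed at the transcript level in mouse oocytes through 7 genes: Mos, Map2k1, Map2k2, Mapk3, Rps6ka1, Rps6ka2 and Rps6ka3. They were selected by gene name, and each had 1 entry among the 28618 entries (27987 gene names) of the FPKM table. RNA had been sequenced from fully grown oocytes at the germinal vesicle (GV) stage, arrested before the first meiotic division, and from ovulated eggs labelled as metaphase II (MII). Both stages came from wildtype (WT) females and from Psma7 cKO females, in which a floxed Psma7 gene, encoding the α4 subunit of the 20S proteasome, was deleted by a Cre transgene under the oocyte promoter Zp3 (Psma7 fl/fl;Zp3-Cre). Each of the 4 groups (WT GV, cKO GV, WT MII and cKO MII) held 4 biological replicates. The sample labels describe 5 pooled oocytes behind each library. All females were 3 to 4 weeks old and had received 5 IU of PMSG, and GV oocytes were taken after 44 h. For eggs, hCG was given at 44 h, the eggs were flushed from the oviducts 14 to 16 h later, and cumulus cells were removed with 0.3% hyaluronidase. The labels do not name the strain, and they do not say whether the WT females carried the floxed allele or the Cre transgene.

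In vertebrate oocytes this cascade is started by translation of a stored mRNA. Mos is a germ cell kinase that phosphorylates and activates the MAP kinase kinases MEK1 and MEK2 (Map2k1, Map2k2), and these activate MAP kinases such as ERK1 (Mapk3). Active ERK phosphorylates the ribosomal S6 kinases RSK1, RSK3 and RSK2 (Rps6ka1, Rps6ka2, Rps6ka3) among other substrates. The pathway is best known in eggs for cytostatic factor activity, the arrest at metaphase II that lasts until fertilization, and mouse eggs without Mos activate spontaneously. Fully grown oocytes make little new RNA and carry the pathway's mRNAs in store through maturation.

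Transcript ends are shown because cDNA was primed with oligo-dT and was thus made through the poly(A) tail, which stored mRNAs gain or lose during maturation. The hexamer AATAAA, the canonical polyadenylation signal, was searched together with ATTAAA on the sense strand of the last 100 bases of each gene's main transcript (GENCODE release M21, build GRCm38). AATAAA was found in 5 of the 7 genes and, in either spelling, in 80.8% of 15814 transcripts with a 3′ UTR of at least 100 bases. Stretches around the hexamer of those 5 genes follow 5′ to 3′, with the hexamer in capitals; each stops 6 bases after it and so short of the annotated end.
Mos: tagggcatatttttaggaAATAAAgttacc
Map2k1: aaaatactatcaagttaaAATAAAagggac
Rps6ka1: tctgtccaaggcctttctAATAAActtaca
Rps6ka2: ttcccatgagattttttgAATAAAcatgga
Rps6ka3: agaaatggaaatttatatAATAAAgtttca
These lie at chr4:3870667-3870696 (minus strand) for Mos, chr9:64185779-64185808 (minus) for Map2k1, chr4:133847301-133847330 (minus) for Rps6ka1, chr17:7303271-7303300 (plus) for Rps6ka2 and chrX:159368206-159368235 (plus) for Rps6ka3. The hexamer ended 16 bases before the annotated end of Mos, 15 before that of Map2k1, 17 before that of Rps6ka1, 21 before that of Rps6ka2 and 15 before that of Rps6ka3. For Map2k2 and Mapk3 neither spelling was in the window. TTTTAT or TTTTAAT, letters bound by the cytoplasmic polyadenylation factor CPEB1, were in the same window of 18.5% of those transcripts and of 1 of the 7 genes, Rps6ka2, 9 bases before its end and downstream of the stretch shown. A match or its absence describes letters in this window and no site.

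In GRCm38, Mos is a single-exon gene on chr4:3870657-3872105 (minus strand), with an annotated 3′ UTR of 126 bases in a transcript of 1449. The MEK genes have 11 exons each, with Map2k1 on chr9:64185770-64253631 (minus) and Map2k2 on chr10:81105915-81133975 (plus). Mapk3 has 9 exons on chr7:126759601-126765819 (plus). Rps6ka1 (22 exons) lies on chr4:133847290-133887797 (minus), Rps6ka2 (21 exons) on chr17:7170115-7303315 (plus) and Rps6ka3 (22 exons) on chrX:159210307-159368244 (plus).

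FPKM divides a transcript's fragments by its length and by the mapped total, so it is a share of a library. Neither a lower amount of RNA per oocyte nor a shorter tail can be told apart from a lower share here. The same holds for a higher share, which a higher amount, a longer tail or a fall of the other transcripts would each give. Estimated from the smallest steps in FPKM, libraries ranged in depth from 10.5 to 15.7 M fragments, with a median of 13.6 M. Psma7, the deleted gene, averaged 165 ± 25.3 FPKM in WT GV libraries against 14.6 ± 2.82 in cKO GV libraries, and 126 ± 32.1 FPKM in WT MII against 39.7 ± 20.2 in cKO MII libraries (mean ± SD, n = 4 each). It was lower in every cKO library than in any WT library of its stage (two-sided exact permutation test, p = 0.0286 at each stage, the smallest p that 4 libraries against 4 allow). All 8 oocyte markers were at or above 1 FPKM in every library. Of 12 cumulus and granulosa cell markers 3 reached 1 FPKM, and did so in every library. These were Cyp19a1 (6.2 to 15.2 FPKM), Nr5a2 (1.94 to 3.94) and Kitl (3.24 to 7.16). The other markers stayed below 1 FPKM, from Fshr and Inha, with highest values of 0.862 and 0.815, to Amh and Foxl2, at or below 0.049 in all libraries. Summed over the 12, these markers ran from 15.8 to 20.5 FPKM in GV oocytes and from 19.6 to 23.3 in eggs, but they did not move together. In WT, Cyp19a1 and Has2 were higher in all eggs than in all GV oocytes, and Fshr, Inha, Inhba and Nr5a2 were lower. The rest overlapped between the stages. Cyp19a1 had 6.2 to 9.42 FPKM in WT GV oocytes and 12.6 to 14.2 in WT eggs. Nr5a2 had 3.47 to 3.94 and 2.24 to 2.65. The part of these markers in the stage differences was not tested. On a line drawn from the mean of WT GV oocytes (0%) to the mean of WT eggs (100%) over 10475 entries, WT eggs lay at 98.1 to 102%. The line is set by these same WT libraries, so the WT eggs average 100% by construction. GV libraries lay at -4.11 to 5.42% in WT and at -4.51 to -1.04% in cKO. The cKO eggs lay at 81.7, 90.8, 60.4 and 78.4% (replicates 1 to 4), so replicate 3 stood farthest from the WT eggs. The paper reports that some ovulated cKO oocytes released no first polar body or were still at the GV stage. It also reports that a sizeable part of those that released it were arrested at telophase I, before metaphase II. Whether such oocytes were in the cKO egg pools is not given in the labels. A mix of stages in these pools cannot be told apart from a difference of genotype here.

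All called differences of the pathway were between stages. In WT, Mos and Map2k1 rose from GV to MII, while Map2k2, Mapk3 and Rps6ka1 fell. In cKO, Mos and Rps6ka3 rose and the same 3 genes fell. Neither stage gave a called difference between genotypes for any of the genes tested. Calls were made with limma on log2 FPKM, with values below 1 FPKM set to 1 and entries with a mean of at least 1 FPKM tested, at a Benjamini-Hochberg adjusted p under 0.05. Of the 7 genes 6 passed that filter in every comparison. Rps6ka2 was under 1 FPKM in all 16 libraries and was not tested. During maturation 2 of the 6 rose and 3 fell in each genotype. Over all entries tested, 78.5% were called in WT (26.1% higher and 52.4% lower) and 74% in cKO (23% higher and 51% lower), so a share of 5 in 6 lay near that of the table as a whole. Libraries of the 2 stages did not overlap for 4 of the 6 genes in WT (72.7% of all entries) and for 5 of the 6 in cKO (68.6%). The median log2 fold change of the 6 genes was -0.64 in WT and -0.67 in cKO, beside -0.44 and -0.42 over all entries. Rescaling the libraries by their median ratio moved the latter to -0.22 and -0.17 without turning the direction of any of the 6 genes in maturation. The split of all calls then went from 2738 higher and 5486 lower to 3457 and 4792 in WT, and from 2472 and 5482 to 3314 and 4574 in cKO.

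**Figure D1:**
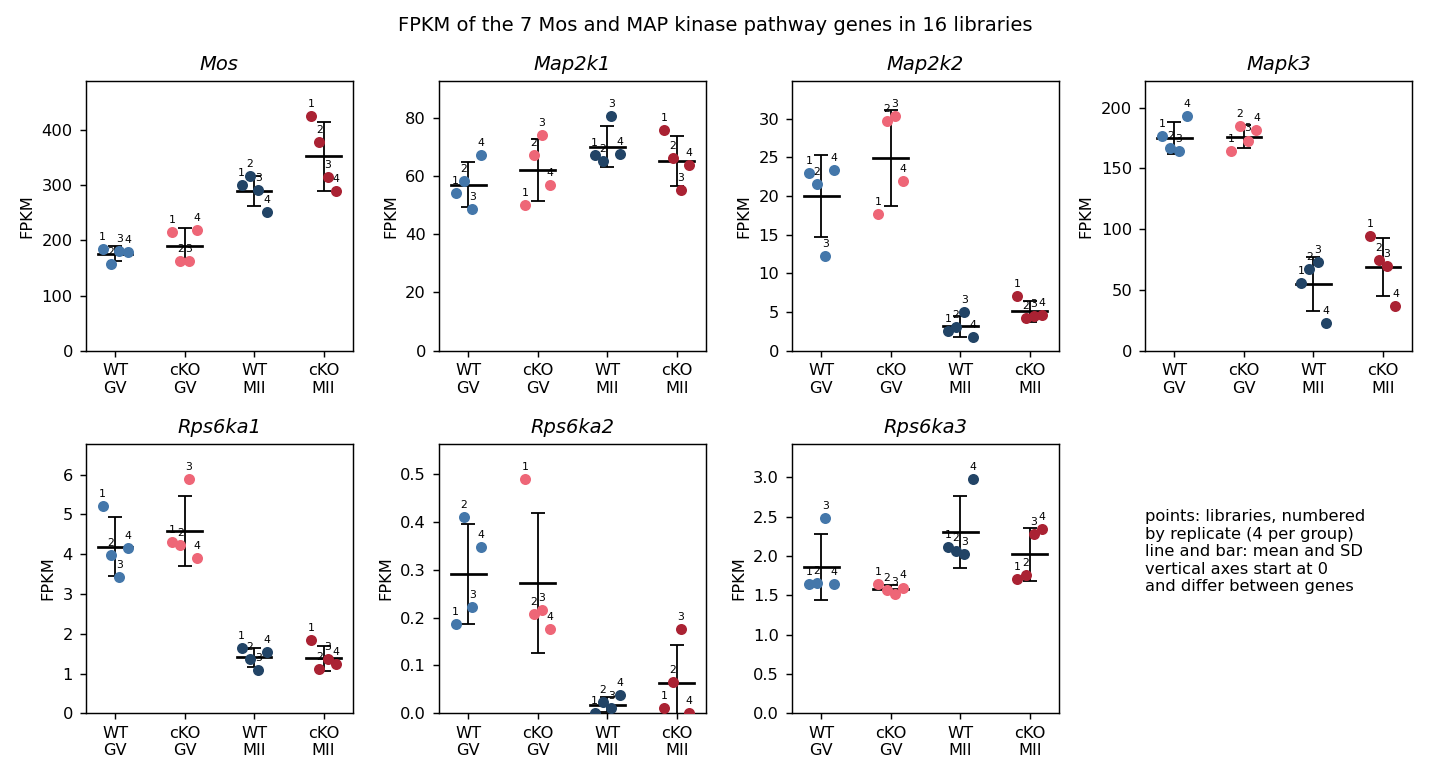
FPKM (vertical axes, linear from 0, with a separate scale for each gene) of the 7 genes in WT GV, cKO GV, WT MII and cKO MII libraries; points are libraries numbered by replicate, and lines with bars are the mean and SD of 4, with bars cut at 0. Mos lies higher in eggs than in GV oocytes in both genotypes, and Map2k2, Mapk3 and Rps6ka1 lie lower.

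Mos, the kinase that starts the cascade, had the highest level per length of the 7 in eggs, and shared that place with Mapk3 in GV oocytes (means of 176 ± 12.9 and 175 ± 12.9 FPKM in WT, and 190 ± 31.9 and 176 ± 9.57 in cKO). WT GV oocytes held 185, 157, 181 and 179 FPKM in replicates 1 to 4, and cKO GV oocytes held 215, 162, 162 and 219. In WT eggs it stood at 300, 316, 291 and 252 FPKM, and in cKO eggs at 425, 379, 314 and 289. All 8 egg libraries lay above all 8 GV libraries, and the highest values were those of cKO egg replicates 1 and 2. By rank, Mos was entry 298 to 423 of a GV library, 193 to 243 of a WT egg library and 135 to 216 of a cKO egg library. It rose 1.65-fold in WT (log2 fold change 0.72, SE 0.09, 95% interval 0.52 to 0.92, limma adjusted p = 2.42e-05). In cKO it rose 1.85-fold (0.89, SE 0.16, interval 0.54 to 1.24, adjusted p = 0.000633). Of all entries tested, 14.1% in WT and 7.93% in cKO had a larger log2 fold change than Mos. An estimated 2908 to 9042 fragments per library stood behind these values.

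The MEK transcripts moved apart. Map2k1 (MEK1) had 54.1, 58.1, 48.7 and 67.2 FPKM in WT GV oocytes and 49.9, 67.2, 74.1 and 57 in cKO GV oocytes. In eggs it had 67.3, 65, 80.5 and 67.6 FPKM in WT and 75.8, 66.3, 55 and 63.6 in cKO. The stages overlapped in both genotypes. In WT, Map2k1 rose 1.23-fold (log2 fold change 0.30, SE 0.11, interval 0.06 to 0.55, limma adjusted p = 0.0265). This call was lost without WT GV replicate 1, WT GV replicate 3 or WT MII replicate 3 (adjusted p = 0.0642, 0.0646 and 0.0807). In cKO the difference was 0.08 (SE 0.14, interval -0.25 to 0.40, adjusted p = 0.643), and the difference between the genotypes' changes, -0.23 (interval -0.62 to 0.17), did not pass (interaction adjusted p = 0.585).

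Map2k2 (MEK2) was lower than Map2k1 in all libraries and fell strongly. It stood at 22.9, 21.6, 12.2 and 23.4 FPKM in WT GV oocytes and at 17.7, 29.7, 30.3 and 21.9 in cKO GV oocytes. WT eggs kept 2.58, 3.1, 5.03 and 1.79 FPKM, and cKO eggs kept 7.05, 4.26, 4.45 and 4.61. No egg library reached the lowest GV library of either genotype, 12.2 FPKM. The fall was 6.65-fold in WT (log2 fold change -2.73, SE 0.30, interval -3.41 to -2.06, limma adjusted p = 9.42e-06) and 4.88-fold in cKO (-2.29, SE 0.22, interval -2.78 to -1.79, adjusted p = 1.76e-05). Among all entries tested, 7.78% in WT and 7.27% in cKO had a lower log2 fold change. Its egg values rested on an estimated 57 to 249 fragments, against 404 to 1142 in GV oocytes.

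Mapk3, which encodes ERK1, was close to Mos in GV oocytes and below it in eggs. Its FPKM was 177, 167, 164 and 193 in WT GV oocytes and 164, 185, 173 and 182 in cKO GV oocytes. WT eggs gave 55.4, 67.3, 72.9 and 23.1, and cKO eggs 94.4, 74.5, 69.6 and 37. All eggs were below all GV oocytes, and replicate 4 was the lowest egg library in both genotypes. Mapk3 fell 3.49-fold in WT (log2 fold change -1.80, SE 0.30, interval -2.46 to -1.15, limma adjusted p = 0.000207) and 2.7-fold in cKO (-1.43, SE 0.24, interval -1.98 to -0.88, adjusted p = 0.000565). The ratio of Mos to Mapk3 FPKM was 0.876 to 1.31 in the 8 GV libraries. The egg ratios were 5.42, 4.69, 4 and 10.9 in WT, and 4.5, 5.09, 4.51 and 7.82 in cKO. Map2k1 and Mapk3 overlapped in eggs, where their mean levels were 70.1 ± 7.03 and 54.7 ± 22.3 FPKM in WT and 65.2 ± 8.56 and 68.9 ± 23.8 in cKO.

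The RSK genes Rps6ka1, Rps6ka2 and Rps6ka3 had the lowest mean FPKM of the 7 genes in every group, although single libraries crossed (Rps6ka3 at 2.98 and Map2k2 at 1.79 FPKM in WT MII replicate 4). Rps6ka1 (RSK1) had 5.2, 3.99, 3.43 and 4.15 FPKM in WT GV oocytes and 4.31, 4.24, 5.89 and 3.9 in cKO GV oocytes. In eggs it had 1.64, 1.36, 1.1 and 1.53 FPKM in WT and 1.84, 1.12, 1.36 and 1.24 in cKO, without overlap between stages. It fell 2.98-fold in WT (log2 fold change -1.57, SE 0.17, interval -1.95 to -1.19, limma adjusted p = 8.42e-06) and 3.32-fold in cKO (-1.73, SE 0.19, interval -2.16 to -1.30, adjusted p = 3.79e-05). Egg values of Rps6ka1 were close to the floor of 1 FPKM and rested on an estimated 45 to 85 fragments per library.

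Rps6ka3 (RSK2) went the other way by a small amount. It stood at 1.64, 1.66, 2.48 and 1.64 FPKM in WT GV oocytes and at 1.65, 1.57, 1.52 and 1.6 in cKO GV oocytes. Eggs held 2.11, 2.07, 2.03 and 2.98 FPKM in WT and 1.71, 1.76, 2.28 and 2.34 in cKO. WT GV replicate 3 lay above 3 of the 4 WT eggs, whereas every cKO egg lay above every cKO GV library. In cKO it rose 1.26-fold (log2 fold change 0.34, SE 0.14, interval 0.03 to 0.64, limma adjusted p = 0.0462). That call was lost when any of the 4 cKO GV libraries, cKO MII replicate 3 or cKO MII replicate 4 was left out (adjusted p from 0.0602 to 0.124). In WT the log2 fold change was 0.31 (SE 0.18, interval -0.10 to 0.72, adjusted p = 0.142), and without WT GV replicate 3 it was 0.46 and passed (adjusted p = 0.021). The interaction for Rps6ka3 was 0.03 (interval -0.47 to 0.52, adjusted p = 0.97). Its values, too, were close to the floor of 1 FPKM and rested on an estimated 122 to 285 fragments per library.

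Rps6ka2 (RSK3) was at the edge of detection. Its FPKM was 0.187, 0.41, 0.221 and 0.346 in WT GV oocytes and 0.489, 0.208, 0.216 and 0.177 in cKO GV oocytes, from an estimated 10 to 34 fragments. WT eggs gave 0, 0.0231, 0.0118 and 0.0384 FPKM, and cKO eggs 0.0115, 0.0661, 0.176 and 0, from an estimated 0 to 13 fragments. Its GV values lay above its egg values within each genotype, at levels for which no fold is given.

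Among the 3 RSK members, and between the MEK genes, the balance of transcripts shifted with stage. The RSK gene Rps6ka6, which is not a member, is left out of these sums. Its means were 4.13 FPKM in WT GV oocytes and 6.48 in WT eggs, and 4.13 and 7.08 in cKO, so the shares are not those of the whole RSK family. Rps6ka1 made up 65.8 ± 7.47% of the summed FPKM of the 3 RSK members in WT GV oocytes and 70.8 ± 4.52% in cKO GV oocytes (mean ± SD, n = 4 each). In eggs Rps6ka3 was the largest part of the 3, at 61.6 ± 4.28% in WT and 58.2 ± 7.29% in cKO, up from 29.5 ± 7.53% and 25 ± 3.52%. Rps6ka3 exceeded Rps6ka1 in 0 of 8 GV libraries, 4 of 4 WT eggs and 3 of 4 cKO eggs; in cKO egg replicate 1 the ratio was 0.931. With values below 1 FPKM set to 1, Rps6ka2 entered at the floor, and Rps6ka3 made up 48.6% in WT and 45.8% in cKO eggs. For the MEK genes, Map2k1 made up 74.3 ± 4.09% of the pair in WT GV oocytes and 71.6 ± 1.89% in cKO GV oocytes, against 95.8 ± 1.39% in WT and 92.8 ± 1.06% in cKO eggs. In cKO eggs Map2k1 ran from 91.5 to 94% and in WT eggs from 94.1 to 97.4%. These shares are of transcripts per length and were not tested.

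**Figure D2:**
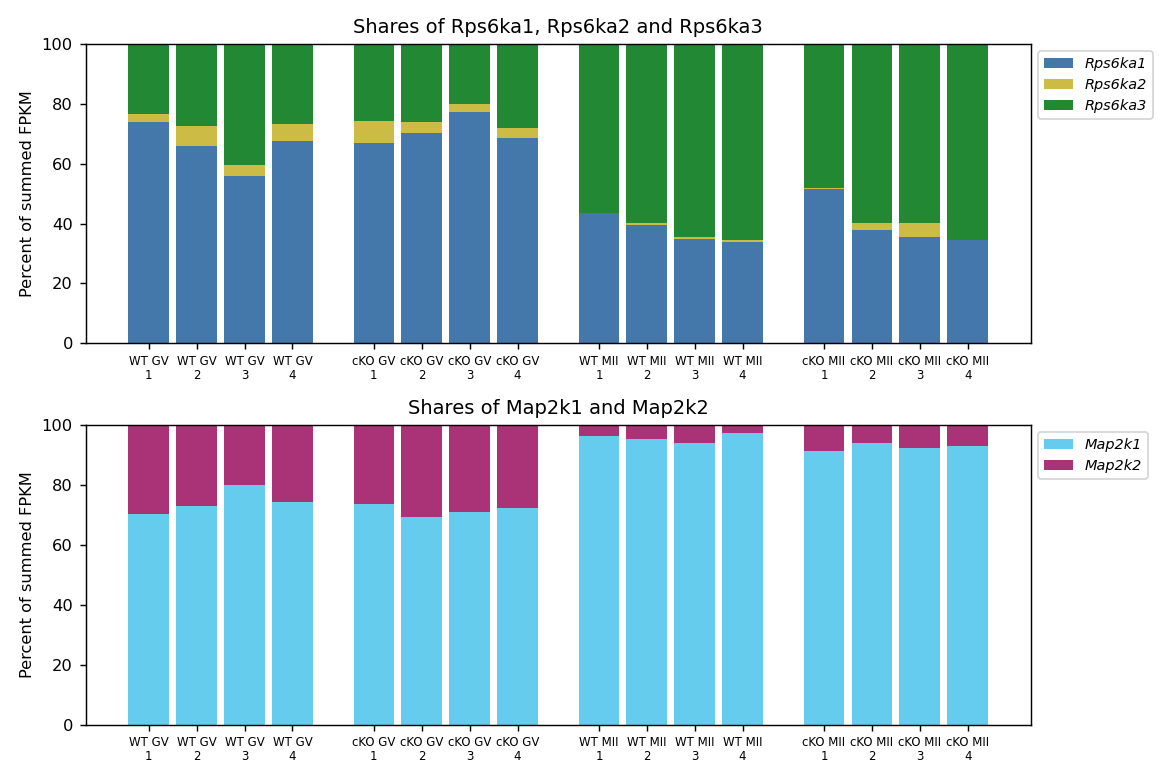
Share (percent of summed FPKM, vertical axes from 0 to 100) of Rps6ka1, Rps6ka2 and Rps6ka3 (upper panel) and of Map2k1 and Map2k2 (lower panel) in each of the 16 libraries, with groups side by side. Rps6ka3 takes 19.9 to 40.5% in GV oocytes and 48.1 to 65.4% in cKO eggs or 56.3 to 65.5% in WT eggs, and Map2k1 takes at least 91.5% of the pair in every egg library.

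Between genotypes none of the 6 genes tested was called in GV oocytes, where 0.118% of 11062 entries were, or in eggs, where 8.02% of 9492 were. WT and cKO values overlapped for all 6 at both stages, against no overlap for 6.67% of entries in GV oocytes and 20.7% in eggs. In GV oocytes the log2 fold changes (cKO against WT) were 0.10 for Mos, 0.12 for Map2k1, 0.33 for Map2k2, 0.01 for Mapk3, 0.13 for Rps6ka1 and -0.20 for Rps6ka3, with limma adjusted p from 0.665 to 0.984. None of these reached an unadjusted p under 0.05, which 10.7% of entries did. The narrowest interval was that of Mapk3 (-0.18 to 0.19) and the widest that of Map2k2 (-0.19 to 0.84).

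In eggs the largest difference was that of Map2k2, with 3.13 ± 1.38 FPKM in WT and 5.09 ± 1.32 in cKO. Its log2 fold change was 0.77 (SE 0.30, interval 0.09 to 1.46), and it did not pass (limma adjusted p = 0.129, unadjusted p = 0.0303). It was the 1 gene of the 6 under an unadjusted p of 0.05, and 29.4% of all entries were. Mos had 290 ± 27 FPKM in WT and 352 ± 61.8 in cKO eggs (0.27, SE 0.13, interval -0.02 to 0.55, adjusted p = 0.193). The values were -0.11 (-0.35 to 0.13) for Map2k1, 0.38 (-0.50 to 1.26) for Mapk3, -0.03 (-0.47 to 0.41) for Rps6ka1 and -0.18 (-0.58 to 0.23) for Rps6ka3, with adjusted p from 0.531 to 0.934. Without cKO egg replicate 3 the difference was 0.32 for Mos, 0.83 for Map2k2 and 0.35 for Mapk3. Over all 8 fits that left out 1 egg library, the Mos difference was lowest, 0.17, with cKO MII replicate 1 left out and highest, 0.36, with cKO MII replicate 4 left out. That of Map2k2 ran from 0.54 (without WT MII replicate 4) to 1.04 (without WT MII replicate 3). Mapk3 ran from 0.01 (without WT MII replicate 4) to 0.65 (without cKO MII replicate 4). None of the 6 genes was called in any of these fits. The part of the cKO eggs' shorter distance along the maturation line in these values was not tested. The background itself moved with single libraries, from 3 called entries without WT MII replicate 3 to 1160 without cKO MII replicate 2.

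The genotype by stage term asks whether the change from GV to MII differed between genotypes. It was not called for any of the 6 genes, while 1.26% of 10615 entries were, and none reached an unadjusted p under 0.05 (17.7% of entries). The estimates were 0.17 (-0.22 to 0.56) for Mos, 0.45 (-0.42 to 1.32) for Map2k2, 0.37 (-0.53 to 1.28) for Mapk3 and -0.16 (-0.71 to 0.40) for Rps6ka1. They are positive where the change from GV to MII was a larger rise or a smaller fall in cKO than in WT. The smaller falls of Map2k2 and Mapk3 in cKO than in WT were thus not told apart with 4 libraries a group. For Mapk3 the estimate was 0.00 without WT MII replicate 4, the lowest Mapk3 library, and 0.65 without cKO MII replicate 4. For Map2k2 it ran from 0.21 (without WT MII replicate 4) to 0.71 (without WT MII replicate 3).

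**Figure D3:**
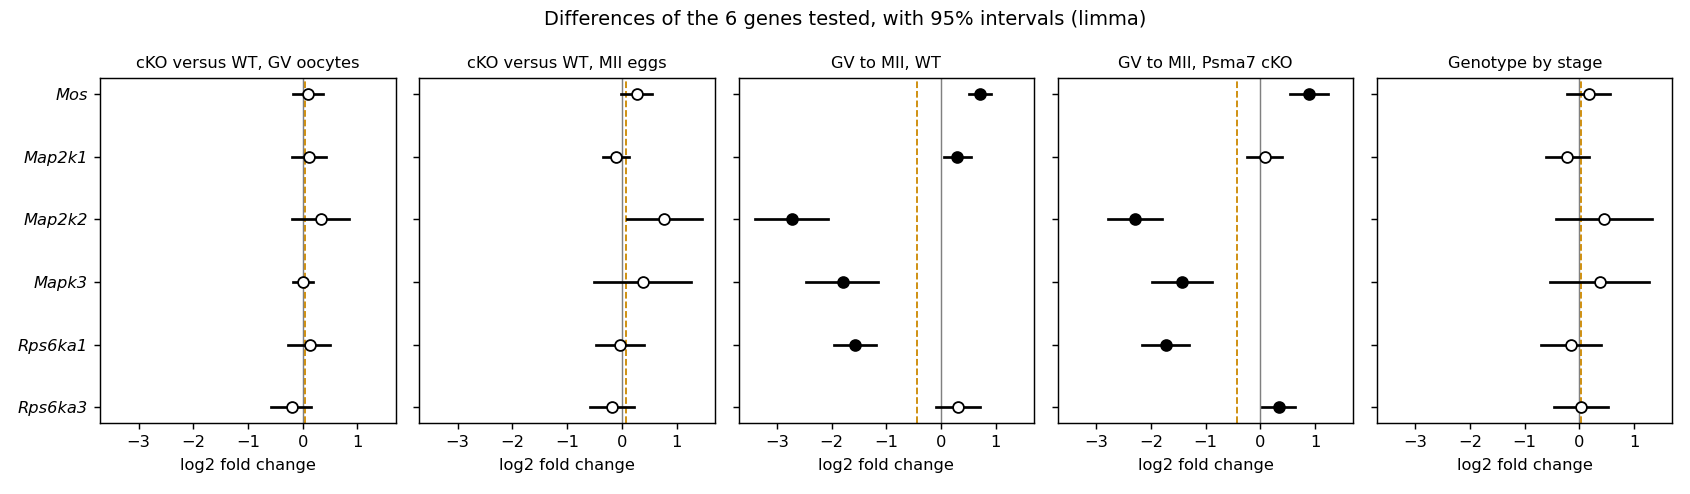
Log2 fold change (horizontal axes) of the 6 genes tested in the 5 comparisons, with 95% intervals from limma; filled points passed the adjusted threshold, the solid line is 0 and the dashed line is the median of all entries tested. In maturation Mos lies at 0.72 and 0.89 and Map2k2 at -2.73 and -2.29, and no point is filled in the genotype and genotype by stage panels.

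Other parts of the pathway were read through 4 lists with 51 genes (53 entries), of which 36 entries passed the filter and 33 in the comparison of eggs. None was called by limma between genotypes or in the genotype by stage term, and at an unadjusted p under 0.05 there were 1 in GV oocytes, 2 in eggs and 1 for the genotype by stage term, beside 10.7%, 29.4% and 17.7% of all entries. During maturation 14 were higher and 14 lower in WT, where 26.1% of all entries were higher and 52.4% lower. In cKO 14 were higher and 13 lower, beside 23% and 51% of all entries. In all, 28 of the 36 were called in WT and 27 in cKO, near the table's 78.5% and 74%. Among 7 other kinases tested, 2 rose and 4 fell in WT, and 2 rose and 3 fell in cKO, with a median of -0.36 and -0.08. Araf, a RAF kinase that activates MEK in somatic cells, fell from 3.04 ± 0.414 to 0.432 ± 0.0871 FPKM in WT and from 2.99 ± 0.39 to 0.597 ± 0.186 in cKO. Rps6ka5, which encodes the related kinase MSK1, rose from 17.1 ± 1.28 to 27.8 ± 2.68 FPKM in WT and from 16.3 ± 0.746 to 26.3 ± 3.46 in cKO. Rps6ka6, encoding RSK4, rose from 4.13 ± 0.333 to 6.48 ± 0.397 FPKM in WT and from 4.13 ± 0.687 to 7.08 ± 0.467 in cKO, and this is 1 of its 2 entries, the other not having passed the filter.

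Scaffolds and inhibitors of the cascade went both ways, with 4 of 11 tested higher and 4 lower in each genotype (median -0.01 in WT and -0.05 in cKO). For this list and the phosphatases below, the shares over all entries were 26.1% higher and 52.4% lower in WT, and 23% and 51% in cKO. Spry1, a feedback inhibitor of receptor signalling to ERK, fell from 39.2 ± 5.65 to 5.19 ± 1.2 FPKM in WT and from 42.9 ± 6.72 to 9.71 ± 5.14 in cKO. The scaffold Iqgap1 fell from 6.01 ± 1.57 to 1.56 ± 0.277 FPKM in WT and from 5.65 ± 1.24 to 1.24 ± 0.304 in cKO. Lamtor2, a subunit of the late endosomal Ragulator complex that anchors MEK1, rose from 9.91 ± 3.88 to 28.4 ± 4.25 FPKM in WT and from 8.12 ± 2.08 to 27.5 ± 1.58 in cKO. Of 8 phosphatase genes tested, not all of them particular to ERK, 2 rose and 4 fell in each genotype (median -0.35 and -0.41). Ppp2ca, a catalytic subunit of the phosphatase PP2A, fell from 36.7 ± 8.08 to 8.8 ± 1.79 FPKM in WT and from 38.1 ± 6.7 to 12 ± 4.94 in cKO. Dusp2 fell from 3 ± 1.39 to 0.234 ± 0.197 FPKM in WT and from 4.28 ± 0.445 to 0.668 ± 0.381 in cKO. Dusp16 fell from 4.2 ± 0.834 to 2.34 ± 0.187 and from 3.47 ± 0.515 to 1.78 ± 0.328 FPKM; both encode dual-specificity phosphatases of MAP kinases.

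Genes of the translational control of Mos and targets of the cascade formed the list with the highest medians, 1.05 in WT and 0.89 in cKO. The lists were chosen with earlier results of these data known, so this order only describes them. Of 10 tested, 6 rose and 2 fell in each genotype. Over all entries 26.1% were called higher and 52.4% lower in WT, and 23% and 51% in cKO. Cpeb1, whose product binds stored mRNAs at TTTTAT elements, fell from 130 ± 14.6 to 25.6 ± 1.48 FPKM in WT (log2 fold change -2.34, limma adjusted p = 5.05e-09) and from 127 ± 15.4 to 38.9 ± 9.66 in cKO (-1.73, adjusted p = 2.65e-05). Its relative Cpeb4 rose from 5.92 ± 0.846 to 14.3 ± 0.956 FPKM in WT and from 5.15 ± 0.924 to 13.8 ± 1.6 in cKO. Btg4, an adaptor of the CCR4-NOT deadenylase that removes maternal mRNAs, had a log2 fold change of 1.39 (adjusted p = 1.73e-07) in WT and 1.30 (adjusted p = 3.85e-06) in cKO.

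**Figure D4:**
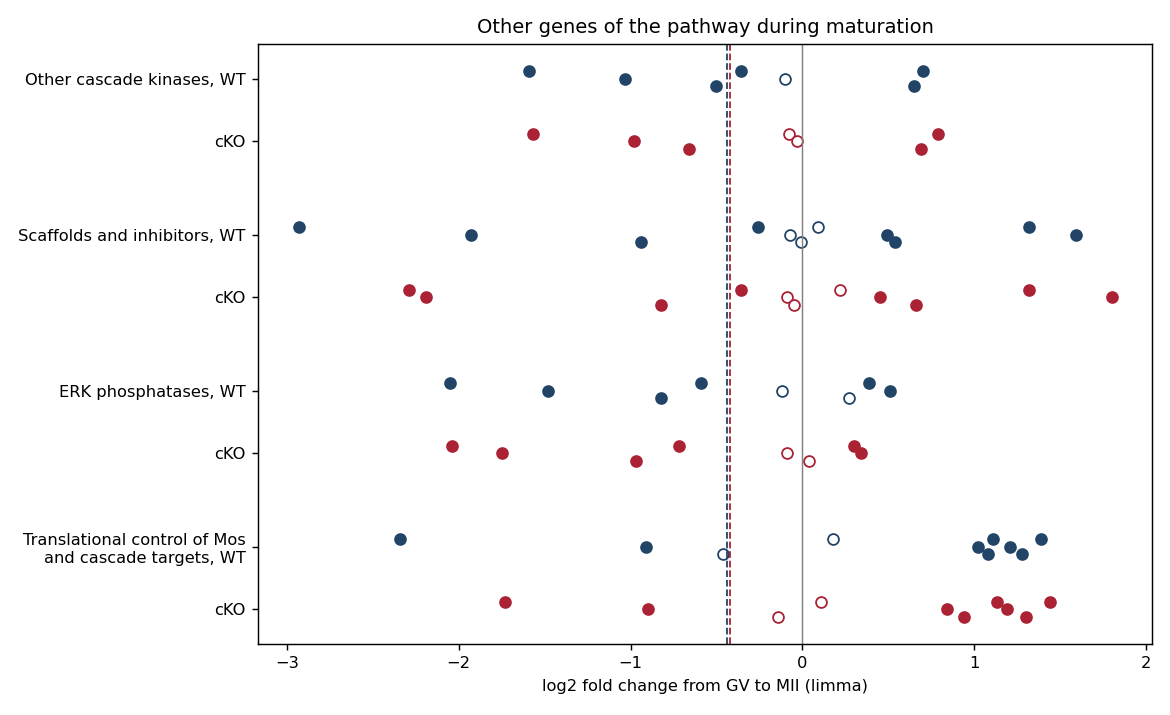
Log2 fold change from GV to MII (horizontal axis) of the tested entries of the 4 other lists, in WT (dark blue) and cKO (red); each point is 1 entry, filled where it passed the adjusted limma threshold, the solid line is 0 and the dashed lines are the medians of all entries, -0.44 in WT and -0.42 in cKO. Points of the translational control list lie mostly to the right (medians 1.05 and 0.89), and the other lists spread to both sides. The lists were chosen with earlier results of these data known.

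The entries most like Mos were sought by Pearson's r of log2 FPKM over the 16 libraries, among 6337 entries with a mean of at least 5 FPKM. They were Spint2 (r = 0.970), H3f3a (0.970), Gm38514 (0.970), Ppp1r14b (0.967) and Grm2 (0.965). The libraries fall into the 2 stages, so a rise from GV to MII alone gives a high r, and 267 entries reached 0.9. Within the 8 GV libraries r with Mos was 0.746 to 0.849 for these 5 entries, and within the 8 egg libraries 0.850 to 0.948. The 5 were picked on the same values, which favours a high r within a stage too. No such r was computed for other entries, so these values do not show a likeness beyond stage. From GV to MII the log2 fold changes ran from 0.55 (Spint2) to 2.04 (Gm38514) in WT and from 0.66 to 2.25 in cKO, for the same entries.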

How the data were processed

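The authors lysed pools of oocytes with ERCC spike-in RNA, reverse transcribed them from oligo-dT primers following Smart-seq2, and deposited FPKM values; the pool is 5 oocytes in the labels and another size in the study's methods. The submitters' processing notes name TopHat2 2.1.1, Cufflinks 2.2.1 and a mouse build equal to GRCm38. The annotation is not given in the sources used here. The deposited FPKM values hold 0 ERCC rows, so the spike-in was not used, and 153906 values lie between 0 and 1, so the study's floor of 1 FPKM was applied here. Replicates are biological according to the labels. The labels name no batch or date.

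Genotype and stage comparisons each used the 8 libraries concerned, and the genotype by stage term used all 16, with limma 3.58.1 (trend) in R 4.3.3, on log2 of floored FPKM. Entries with a mean of at least 1 FPKM were tested, with Benjamini-Hochberg adjustment over all of them. Fold changes are on this floored scale and understate changes of low genes. Psma7 was compared by an exact permutation test over 70 arrangements. Depth was estimated from the smallest FPKM steps, so fragment numbers are estimates. Other steps used Python 3.11.15. Positions and transcript ends came from GENCODE M21, matched by symbol (78.8% of entries).

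The members and gene lists were chosen with earlier results of these data known. All 7 members were named. Of each list, the 3 called genes with the largest absolute log2 fold change per comparison were named, except 1 that is not reported here, and 5 entries by likeness to Mos. As alternatives, the floor was 0.1 FPKM or 1 FPKM was added, libraries were rescaled by median ratios, and the filter was dropped or raised to a mean of 5 FPKM. Other fits used no trend, a replicate block, array weights, entries summed per name, all 16 libraries in one fit, and each library left out in turn. On simulated data with 200 entries changed 3-fold, limma recovered 98% in GV oocytes, 91.5% in eggs, 96% in WT maturation, 90% in cKO maturation and 84.5% for the genotype by stage term, with 3, 10, 9, 14 and 13 false calls. The simulated noise was normal and independent between libraries. The largest genotype difference of a member was 1.71-fold (Map2k2 in eggs), so these rates do not tell how often differences of that size would be called.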

Additional observations from a re-analysis of the deposited data

Results flagged for a closer look

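Of 32 groups of 4 libraries examined (the 7 genes and Psma7 in each group), 6 held a library whose gap to the nearest other exceeded Dixon's critical share of the group's range for 4 values. Chance alone gives about 1 in 20. Rps6ka3 stood apart at 2.48 FPKM in WT GV replicate 3 and at 2.98 FPKM in WT MII replicate 4, both high. Map2k2 was low in WT GV replicate 3, at 12.2 FPKM, and high in cKO MII replicate 1, at 7.05 FPKM. Map2k1 was high in WT MII replicate 3, at 80.5 FPKM, and Rps6ka2 in cKO GV replicate 1, at 0.489 FPKM.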

How the results depend on the processing

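Of 571 alternative values of the members' fold changes 532 kept their direction and their side of the threshold. Mos, Map2k2, Mapk3 and Rps6ka1 kept their maturation calls in both genotypes under every alternative in which they were tested. Map2k1 in WT lost its call with array weights (adjusted p = 0.0795), without a filter (0.0769) and with the replicate block (0.0632), and ranged from 0.23 to 0.39 when a library was left out. Rps6ka3 in cKO lost it with 1 FPKM added (0.0746), all 16 libraries in one fit (0.0737), a floor of 0.1 FPKM (0.0832), no filter (0.254) and the replicate block (0.0901), and Rps6ka3 in WT gained one with array weights (0.0374) and rescaling (0.0273). Same-numbered libraries deviated from their group means with correlations from -0.496 to 0.285 over 16 pairs, so the numbers were not taken to pair them. Libraries with different numbers were not compared in this way. The replicate block left 4 members called in each genotype's maturation and changed no other call of a member. A mean of at least 5 FPKM left 3 of 4 tested members called in cKO maturation, because fewer were tested. Uncalled differences near 0 changed sign: in GV oocytes Mapk3 was -0.02 after rescaling and -0.02 to 0.05 with 1 library left out, and Rps6ka1 -0.00 to 0.24; in eggs Rps6ka1 was -0.17 to 0.06; in cKO maturation Map2k1 was -0.02 to 0.17; and the genotype by stage term of Rps6ka3 was -0.03 with array weights, -0.00 after rescaling and -0.12 to 0.16 with 1 library left out. The cause was not tested. Psma7 in eggs ranged from -2.10 to -1.38, with an exact permutation p of 0.0571 without WT MII replicate 4 (-1.67). Of 80 alternative shares 71 moved by less than 1 SD, and the others moved under the floor of 1 FPKM. Counts over all entries moved most between genotypes: 13 in GV oocytes became 124 with all 16 libraries, 52 with array weights, 6 with the block and 3 without a filter; 761 in eggs became 1498, 899, 108 and 17; the genotype by stage count of 134 became 303 with array weights, 208 with a mean of at least 5 FPKM, 83 with 1 FPKM added, 60 with the block and 29 without a filter. Without the trend 13 became 22 and 761 became 501. A mean of at least 5 FPKM gave 5112 in WT and 4962 in cKO maturation, because fewer entries were tested, and 6 in GV oocytes. With 1 library left out the counts ran from 5 to 19 in GV oocytes, 3 to 1160 in eggs and 41 to 651 for the genotype by stage term. In fits without a filter limma warned that most residual variances were 0. Depth limits Rps6ka2 and the egg values of Rps6ka1, and the values of Rps6ka3 lie near the floor as well.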

Other observations

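The letters in the last 100 transcript bases were also set beside the changes from GV to MII over the whole table. In WT, 40% of 1699 entries with TTTTAT or TTTTAAT were called higher and 36.4% lower, against 23.7% and 56.4% of 6514 without them, and the median log2 fold change was 0.02 against -0.56. In cKO, the values were 35.6% and 35.6% of 1727 entries with the letters and 20.7% and 55.8% of 6652 without (median -0.01 against -0.55). Mos and Map2k1 rose in WT without these letters in their windows. Rps6ka2, the only member with them, lay lower in eggs than in GV oocytes of its genotype, at values under 1 FPKM. Entries with AATAAA or ATTAAA had a median of -0.34 in WT, against -0.78 for those with neither, and -0.36 against -0.73 in cKO. Of the members that fell, Map2k2 and Mapk3 have neither, and Rps6ka1 has AATAAA. These are counts over entries, which are not replicates, and no test was made.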
